A study of Rattus norvegicus with 6 samples.

Results

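The genes described here encode the proteins of the mitochondrial ribosome in rat PC12 cells after knockdown of NQO1. They were taken as the protein-coding rows of the gene count table whose symbol starts with Mrpl or Mrps and a number. This rule found 74 of 18746 rows, 45 named Mrpl for the large subunit and 29 named Mrps for the small subunit. PC12 cells come from a tumour of the rat adrenal medulla. They received an siRNA to NQO1 (siNQO1, 3 libraries) or a control siRNA (siCtrl, 3 libraries) before polyadenylated RNA was sequenced. The paper describes siRNAs, whereas the sample labels describe an shRNA and a control plasmid. Both sources give the same grouping. All cells were transfected with Lipofectamine 2000, and no untransfected cells were among the samples used here. The paper calls the libraries of a group biological replicates. Neither it nor the labels say whether the 3 libraries of a group came from separate cultures, so the p-values measure the spread between these libraries.

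The mitochondrial ribosome translates the messages of the mitochondrial genome, which encode core subunits of the respiratory chain and of ATP synthase. Its rRNAs are transcribed inside the organelle, while all of its proteins are encoded in the nucleus, made on cytosolic ribosomes and imported. Many of these proteins have a counterpart in bacterial ribosomes and others were added during the evolution of mitochondria. NQO1 is a cytosolic quinone reductase that has also been described to bind RNA, and the comparison asks which transcripts differ when it is depleted.

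The libraries held 28873824 to 39467230 reads counted in genes. Nqo1 itself was at 80.8, 75.2 and 77.7 FPKM (fragments scaled by transcript length and by mapped reads) in siNQO1 and at 369, 321 and 345 FPKM in siCtrl, a log2 fold change of -2.13 (SE 0.07, adjusted p = 1.5e-06 by the quasi-likelihood test of edgeR). Among the siCtrl libraries, replicate 2 stood apart. A chi-square of the counts over genes, per degree of freedom, was 49.0 and 32.9 between it and siCtrl replicates 1 and 3, against 12.1 between those replicates and 6.14 to 10.2 among the siNQO1 libraries. Markers of the labelled line went against its label. Of 9 chromaffin cell markers in the table, 7 were under 1 FPKM in every library, among them Th, the rate-limiting enzyme of catecholamine synthesis, at 0.04 to 0.09 FPKM, and Dbh at 0.02 to 0.12 FPKM. Ddc, Chga, Chgb and Phox2a did not exceed 0.05 FPKM in any library. Scg2 was at 108 to 175 FPKM and Snap25 at 1.64 to 2.98 FPKM. Of 14 markers of other cells, 4 exceeded 1 FPKM in every library, including Sox10 at 192 to 233 FPKM and S100b at 169 to 250 FPKM, which mark Schwann and other glial cells. The summed level of the 9 chromaffin markers was 110 to 122 FPKM in siNQO1 and 167 to 177 FPKM in siCtrl, of which Scg2 alone made up 108 to 119 FPKM in siNQO1 and 165 to 175 FPKM in siCtrl, while Snap25 had a log2 fold change of 0.04 (adjusted p = 0.926). The summed level of the other markers was 431 to 435 FPKM in siNQO1 and 478 to 542 FPKM in siCtrl. The part of these markers in the results below was not tested. In bulk RNA a smaller number of cells of a type cannot be told apart from less RNA per cell.

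Promoter sequences are shown first because the members are separate nuclear genes whose products meet in one complex. RefSeq windows on the GRCr8 build, from 250 bases before to 50 bases after the annotated start, were matched by symbol to 57 of the 72 members that could be tested. The stretches below lie wholly upstream of the start and run 5′ to 3′ on the strand of the gene. Capitals mark a match to one of 3 short motifs, with 10 bases on each side. The ETS motif was searched as CCGGAAG, the NRF1 motif as CGCANGCGC and the YY1 motif as AAGATGGC, each on both strands. ETS factors such as GABP, NRF1 and YY1 are transcription factors known for roles in nuclear genes of mitochondrial function. The NRF1 motif reads nearly alike on both strands, so one site can match on both. The last letters of the ETS motif can be the first letters of the YY1 motif, but such an overlap was found in 0 members. The first 5 lines show the ETS motif, the next 4 the NRF1 motif and the last 2 the YY1 motif.
Mrps18c, chr14:9123029-9123055, minus strand: tgtcacgtgaCTTCCGGcccggggagc
Mrpl36, chr1:31795180-31795206, minus strand: ctttatctccCCGGAAGcatgagcctt
Mrpl27, chr10:80092274-80092300, plus strand: tacgcaagacCCGGAAGtagatctatc
Mrpl53, chr4:117172977-117173003, plus strand: ccggaggccaCCGGAAGtctgtttcaa
Mrps18a, chr9:22367402-22367428, minus strand: cacccctgctCCGGAAGcggaagtgca
Mrpl22, chr10:42845871-42845899, plus strand: gcctcggactGCGCATGCGtgcaggcagc
Mrpl17, chr1:169575735-169575763, minus strand: ggctctgatgCGCATGCGCaagcacccct
Mrpl32, chr17:55260580-55260608, plus strand: ttgacctgtgCGCATGCGCagggaacctg
Mrpl44, chr9:88554909-88554937, plus strand: gaagcacttgCGCATGCGCactatgctag
Mrpl48, chr1:164351536-164351563, minus strand: ctcggtaacaAAGATGGCaactaatact
Mrpl32, chr17:55260421-55260448, plus strand: accgcgttctGCCATCTTtacccggaaa

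Mrps18c and Mrpl22 passed the test between groups and the other genes shown did not. The ETS motif was found in 19 of the 57 members (33.3%), against 18.6% of 8729 genes tested that had a window and 9.63% of 27457 genes in all. The YY1 motif was found in 15 members (26.3%), against 5.96% of genes tested and 3.62% of all genes. In 12 of these 15 members the YY1 match lay past the annotated start. The NRF1 motif was found in 11 members (19.3%), against 14.2% of genes tested and 6.52% of all genes. At least 1 of the 3 motifs was present in 35 of the 57 members, and 9 had 2 or more.

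**Figure D1:**
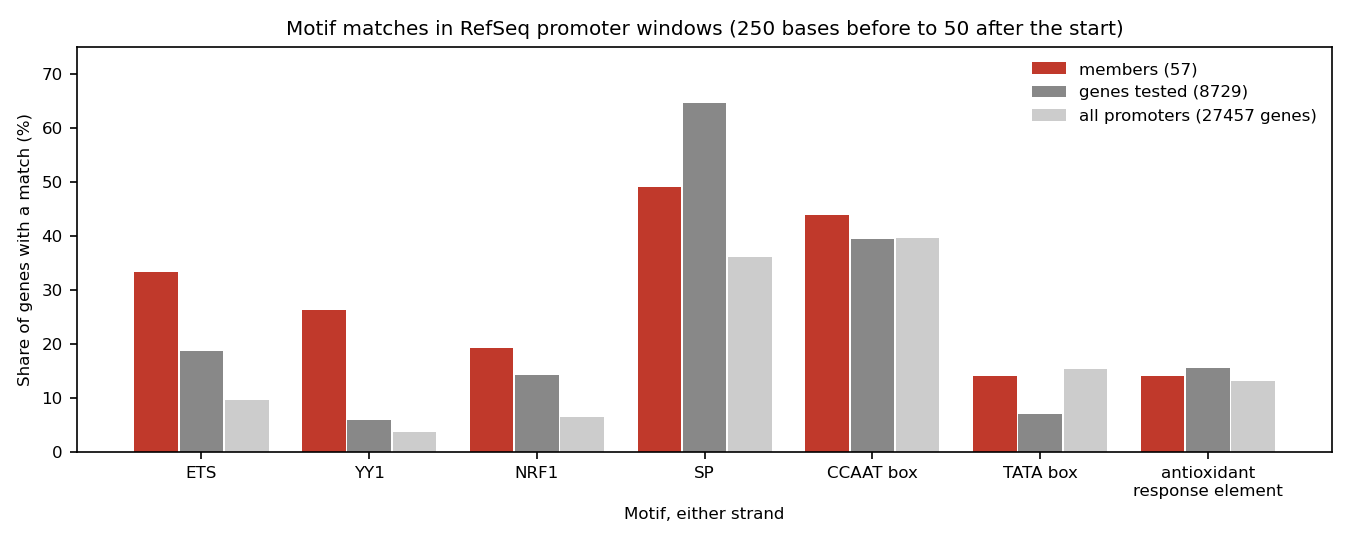
Share of genes (%, vertical axis) with a match to each of 7 motifs on either strand of the RefSeq promoter window, for 57 members (red), 8729 genes tested (dark grey) and 27457 genes in all (light grey). The YY1 motif stood at 26.3% of members, against 5.96% of genes tested, and the SP motif at 49.1% of members, against 64.7% of genes tested.

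Other promoter elements gave other shares. The SP motif, GGGCGG, was in 28 members (49.1%), against 64.7% of genes tested. The CCAAT box was in 25 members (43.9%), against 39.5% of genes tested, and the TATA box, TATAAA, in 8 members (14.0%), against 7.03% of genes tested. The core of the antioxidant response element, TGACNNNGC, through which NQO1 itself is known to be induced, was in 8 members (14.0%), against 15.5% of genes tested. Of the 7 members that passed the test between groups and had a window, 3 held at least 1 of the ETS, YY1 and NRF1 motifs. The SP motif was in 4 of these 7, the CCAAT box in 3, the TATA box in 1 and the antioxidant response element core in 3. Shares among so few genes were not tested. A match describes letters in a window and was not tested as a binding site.

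The members were expressed throughout. Of the 74 rows, 72 had enough reads to be tested, with 449 to 7651 reads per member and library. Mrpl1, which encodes the protein named L1 of the large subunit, had 2 to 7 reads per library. A second row named Mrpl36 had 0 to 4 reads, while the other Mrpl36 row was tested. A row described as similar to Mrpl1, which the rule does not include, held 89 to 185 reads per library. Lower-case symbols kept mrpl9, mrpl11 and mrpl24 outside the rule, and none of these passed the test. Their log2 fold changes were 0.19, -0.10 and 0.02.

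Levels are given in FPKM, which divides by transcript length. The order of genes thus also rests on the lengths used, which the sources used here do not give. Over the 6 libraries the mean level of a member ran from 4.97 FPKM for Mrpl30 to 164 FPKM for Mrpl33, a span of 33.1-fold, with a median of 43.2 FPKM. The median over all genes tested was 8.16 FPKM. The reads of Mrpl30 and Mrpl33 lay closer, at 602 and 1530 in siNQO1 replicate 1 and at 449 and 1321 in siCtrl replicate 1. Much of the 33.1-fold span therefore came from the lengths used. By FPKM, 8 members were above 100 FPKM, 50 between 20 and 100 FPKM and 14 under 20 FPKM. The median level was 43.4 FPKM for Mrpl and 40.1 FPKM for Mrps members.

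Mrpl33, the large-subunit protein at the top, was at 168, 176 and 164 FPKM in siNQO1 and at 169, 158 and 152 FPKM in siCtrl. Mrpl54 followed with 145, 146 and 150 FPKM in siNQO1 and 161, 140 and 164 FPKM in siCtrl. Mrpl17 had 152, 152 and 154 FPKM in siNQO1 and 152, 140 and 155 FPKM in siCtrl. These 3 overlapped between groups, as did Mrps6, a small-subunit protein at 123, 120 and 120 FPKM in siNQO1 and 130, 118 and 120 FPKM in siCtrl. Mrpl54 and Mrpl17 did not differ beyond their spread in the order of levels. At the other end, Mrpl30 was at 5.33, 4.84 and 5.65 FPKM in siNQO1 and at 4.62, 4.87 and 4.52 FPKM in siCtrl. Mrpl50 had 9.53, 9.19 and 10.4 FPKM in siNQO1 and 11.3, 11.5 and 11.0 FPKM in siCtrl. Mrpl47, the counterpart of a bacterial protein at the exit of the peptide tunnel, had 10.6, 11.8 and 11.0 FPKM in siNQO1 and 10.2, 11.0 and 9.37 FPKM in siCtrl. None of these low members passed the test in edgeR, with a log2 fold change of 0.19 for Mrpl30 (adjusted p = 0.205), -0.20 for Mrpl50 (adjusted p = 0.127) and 0.14 for Mrpl47 (adjusted p = 0.316). Mrps2, of the small subunit, had 10.4, 10.4 and 11.0 FPKM in siNQO1 and 13.3, 11.2 and 12.5 FPKM in siCtrl, and did not pass either (-0.20, adjusted p = 0.107). On the log2 CPM scale Mrpl30, Mrpl50 and Mrps2 did not overlap between groups and Mrpl47 did.

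**Figure D2:**
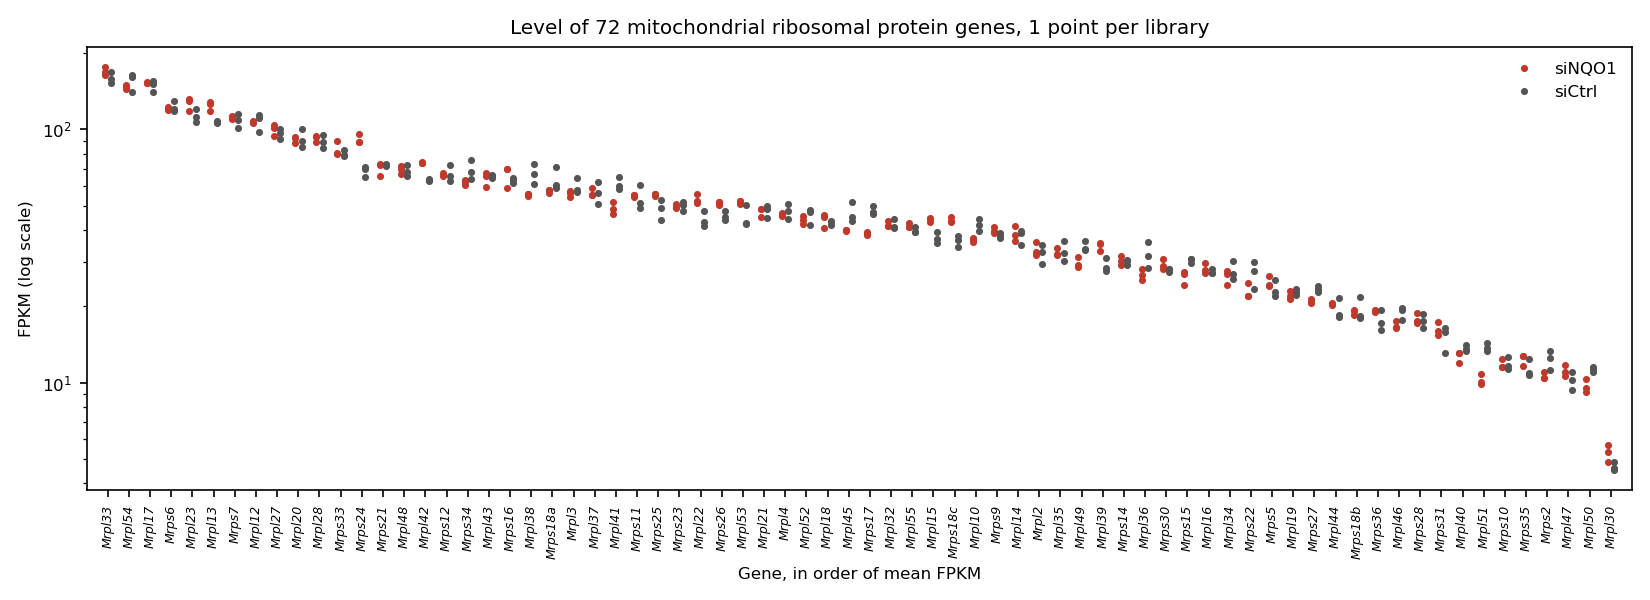
Level of each of the 72 members tested (horizontal axis, in order of mean level) in FPKM on a log scale, with 1 point per library, siNQO1 in red and siCtrl in grey. Levels ran from a mean of 4.97 FPKM for Mrpl30 to 164 FPKM for Mrpl33, and 8 members lay above 100 FPKM.

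Between siNQO1 and siCtrl the members changed little and in both directions. By the quasi-likelihood test of edgeR with Benjamini-Hochberg adjustment over 12420 genes, 7 members rose and 4 fell at an adjusted p under 0.05, and 61 did not pass. These 11 of 72 members made up 15.3%, against 12.6% of all genes tested. Over all genes 5.27% were called higher and 7.38% lower. No member passed a fold of 2, which 54 genes of the whole table did. Without adjustment 24 members (33.3%) had a p under 0.05, as did 29.0% of all genes tested. The log2 CPM of the groups did not overlap in 26 members (36.1%), against 34.2% of all genes tested.

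The sizes of the differences were small. The median log2 fold change of the 72 members was 0.02, beside 0.01 over all genes tested, with 44 values above and 28 below 0. The median absolute log2 fold change was 0.08 for the members and 0.16 for all genes tested. All genes tested had a lower median level, 8.16 FPKM against 43.2 FPKM, and fold changes spread more widely where reads are few. No genes of like level were compared. The members ran from -0.41 to 0.43, and 3 of the 72 exceeded 0.3 in size, as did 3046 of the 12420 genes tested. Standard errors were 0.05 to 0.10, so that in all 72 members the fold change with 2 SE on each side lay within 1.5-fold, and in 52 within 1.25-fold.

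**Figure D3:**
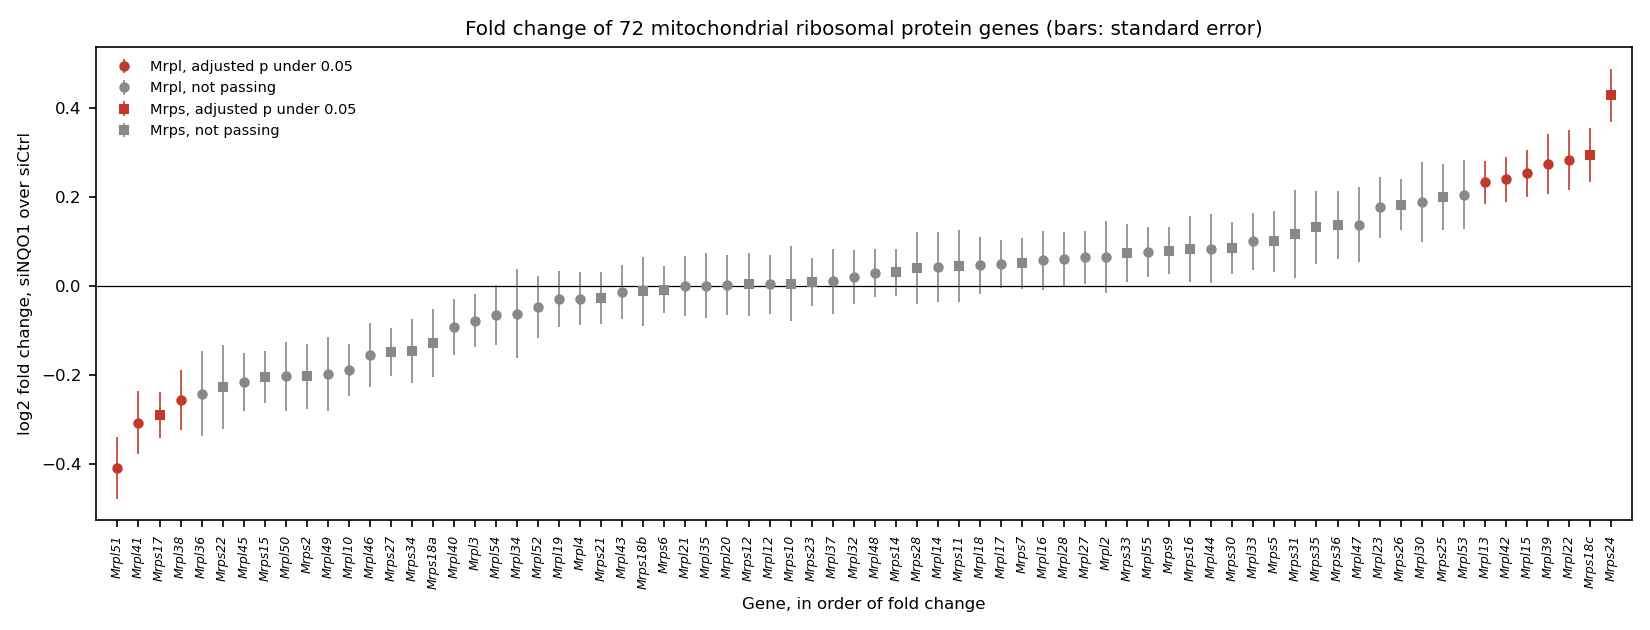
Log2 fold change of siNQO1 over siCtrl (vertical axis) for the 72 members in order of value, with the standard error as bars, circles for Mrpl and squares for Mrps. The 11 members in red passed an adjusted p of 0.05 and lie at both ends, from -0.41 for Mrpl51 to 0.43 for Mrps24.

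The small subunit held the member with the strongest rise. Mrps24, the counterpart of a bacterial protein at the entry of the mRNA channel, was at 89.0, 89.1 and 96.0 FPKM in siNQO1 and at 70.0, 64.5 and 70.9 FPKM in siCtrl. All siNQO1 libraries lay above all siCtrl libraries, and Mrps24 rose by a log2 fold change of 0.43 (SE 0.06, adjusted p = 0.00375). Mrps18c, one of several vertebrate relatives of a single bacterial small-subunit protein, was at 43.0, 43.6 and 45.2 FPKM in siNQO1 and at 37.8, 36.6 and 34.2 FPKM in siCtrl, a rise of 0.29 (SE 0.06, adjusted p = 0.0177). Its relatives Mrps18a and Mrps18b had log2 fold changes of -0.13 (adjusted p = 0.308) and -0.01 (adjusted p = 0.936). Mrps17, the counterpart of an rRNA-binding protein of the bacterial small subunit, was at 38.1, 38.6 and 39.2 FPKM in siNQO1 and at 49.6, 47.2 and 46.1 FPKM in siCtrl. Mrps17 fell by 0.29 on the log2 scale (SE 0.05, adjusted p = 0.00981), again with no overlap.

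Of the 43 members named Mrpl, 5 rose. Mrpl22, the counterpart of a bacterial protein lining the peptide exit tunnel, was at 52.2, 51.3 and 55.7 FPKM in siNQO1 and at 47.5, 43.1 and 41.5 FPKM in siCtrl (log2 fold change 0.28, SE 0.07, adjusted p = 0.0282). In the RefSeq annotation Mrpl22 overlaps Gemin5, which fell (-0.43, adjusted p = 0.00797), and whether reads were counted by strand is not given in the sources used here. Mrpl39, which is related to threonyl-tRNA synthetases and has no bacterial ribosomal counterpart, was at 35.5, 33.1 and 35.3 FPKM in siNQO1 and at 28.4, 30.9 and 27.5 FPKM in siCtrl (0.27, SE 0.07, adjusted p = 0.0336). Mrpl15 was at 44.2, 43.1 and 44.6 FPKM in siNQO1 and at 39.3, 35.5 and 36.9 FPKM in siCtrl (0.25, SE 0.05, adjusted p = 0.0185). Each of these 3 genes had its lowest siNQO1 library above its highest siCtrl library. Mrpl42, another protein without a bacterial counterpart, was at 73.3, 73.4 and 74.4 FPKM in siNQO1 and at 62.9, 63.9 and 62.2 FPKM in siCtrl, a narrow spread within both groups (0.24, SE 0.05, adjusted p = 0.0198). Mrpl13, highest in FPKM of the members that rose, was at 118, 129 and 126 FPKM in siNQO1 and at 106, 106 and 108 FPKM in siCtrl (0.23, SE 0.05, adjusted p = 0.0191).

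The 3 large-subunit members that fell have no counterpart in bacteria. Mrpl51 was at 10.9, 10.1 and 9.91 FPKM in siNQO1 and at 14.3, 13.7 and 13.3 FPKM in siCtrl, and fell by 0.41 on the log2 scale (SE 0.07, adjusted p = 0.00776), the strongest fall among the members. Mrpl41, whose protein has also been described to bind BCL2, was at 46.4, 48.6 and 51.7 FPKM in siNQO1 and at 59.7, 58.1 and 65.1 FPKM in siCtrl (-0.31, SE 0.07, adjusted p = 0.0268). Mrpl38, a protein of the central protuberance of the large subunit, was at 54.7, 55.6 and 55.6 FPKM in siNQO1 and at 72.6, 60.9 and 66.6 FPKM in siCtrl (-0.26, SE 0.07, adjusted p = 0.0409). The siCtrl libraries of Mrpl38 were spread more widely than its siNQO1 libraries.

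In each of these 11 members the groups did not overlap, as in 34.2% of all genes tested. The 11 were picked by a test on these same libraries, so the lack of overlap adds no support. Where groups do not overlap, the exact permutation test over libraries always gives the smallest two-sided p that 3 against 3 allows, 0.10. Mrps24 and Mrps17 kept an adjusted p under 0.05 in edgeR whichever library was left out, with a highest value of 0.0205 for Mrps24 and 0.046 for Mrps17. Mrpl51 kept it in 5 of 6 such fits, and Mrpl13 in 3. The other members kept it in 1 or 2.

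**Figure D4:**
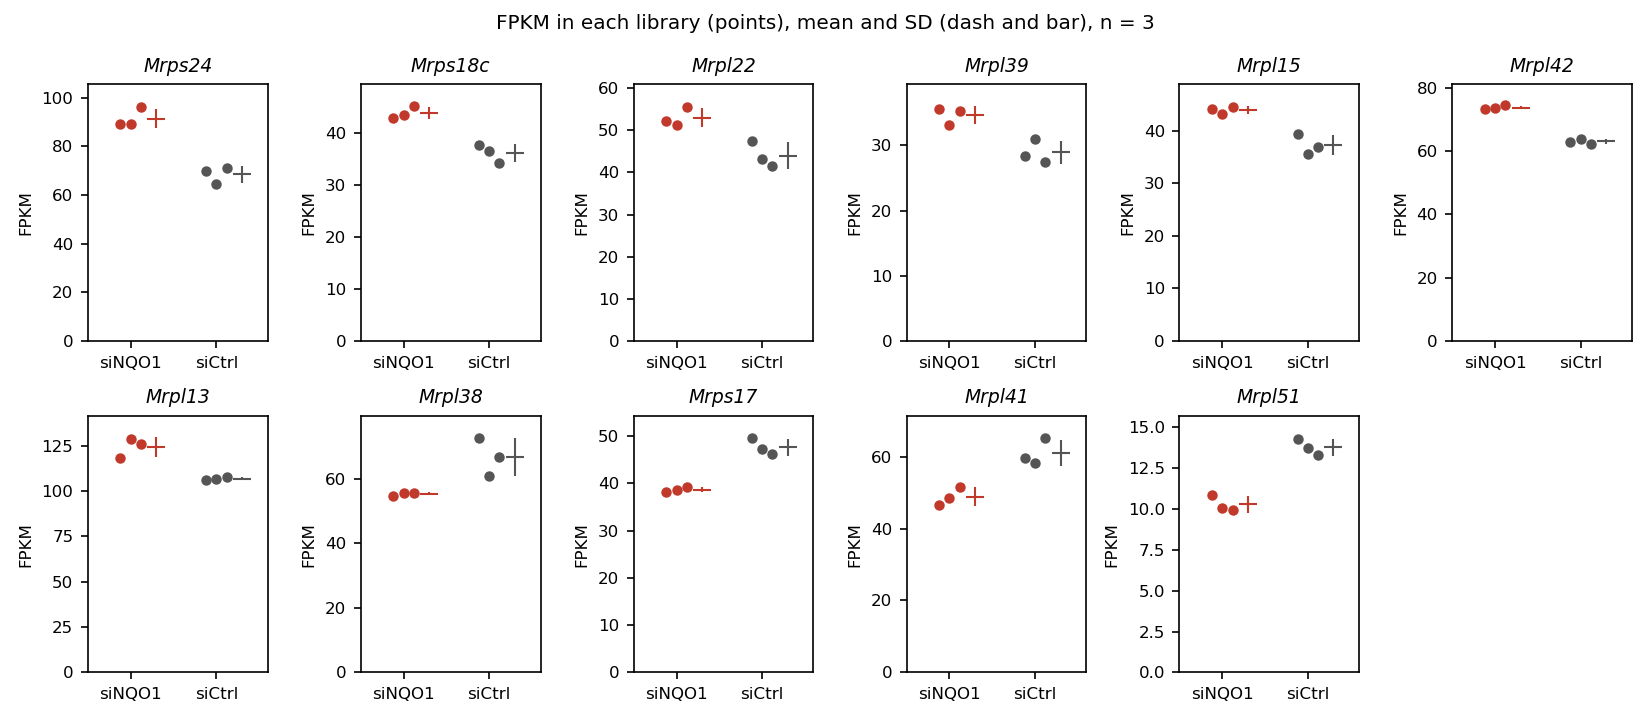
FPKM (vertical axes, starting at 0) of the 11 members that passed the test, with 1 point per library and the mean with SD beside it, siNQO1 in red on the left and siCtrl in grey on the right of each panel. In every panel the siNQO1 and siCtrl points do not overlap, as for Mrps24 at 89.0 to 96.0 FPKM in siNQO1 and 64.5 to 70.9 FPKM in siCtrl.

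Grouped by origin, 43 members have a bacterial counterpart and 27 have none. Of those with a counterpart 5 rose and 1 fell (14.0%), and their median absolute log2 fold change was 0.06. Of those without, 2 rose and 3 fell (18.5%), with a median absolute log2 fold change of 0.15. Over all genes tested, whose median level was lower, 12.6% passed and the median absolute log2 fold change was 0.16. The difference between these classes was not tested. Of the 43 Mrpl members 5 rose and 3 fell, and of the 29 Mrps members 2 rose and 1 fell. Among members named for the small subunit, Mrps18a and Mrps30 sit in the large subunit in mammals. Their log2 fold changes were -0.13 (adjusted p = 0.308) and 0.09 (adjusted p = 0.374) in edgeR. Mrps36, known as a component of the oxoglutarate dehydrogenase complex, had 0.14 (adjusted p = 0.27).

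One siCtrl library was often the lowest. For 34 of the 72 members (47.2%) siCtrl replicate 2 was the lowest of the 6 libraries, as it was for 23.6% of all genes tested. The median member, relative to the siCtrl mean of each gene on the log2 CPM scale, was at 0.00, 0.02 and 0.04 in siNQO1 replicates 1, 2 and 3 and at 0.05, -0.08 and 0.01 in siCtrl replicates 1, 2 and 3. All members together took 0.433, 0.439 and 0.444% of reads in siNQO1 and 0.453, 0.420 and 0.436% in siCtrl, so that the siNQO1 shares lay within the range of the siCtrl shares. Without siCtrl replicate 2, 8 members were higher and 14 lower in siNQO1 by edgeR, 30.6% of the 72, against 33.3% of all genes tested. In that fit 17.2% of all genes were higher and 16.1% lower, and the median log2 fold change of the members was -0.01. All 11 members called with every library were among these 22. The members it added were Mrps26 among those higher and Mrpl10, Mrpl36, Mrpl45, Mrpl46, Mrpl54, Mrps2, Mrps15, Mrps18a, Mrps27 and Mrps34 among those lower, named here because of these values.

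Messages that share a promoter region with a member were compared next. In the RefSeq annotation of GRCr8, 18 of 57 members started within 1000 bases of a gene read in the opposite direction. The share over all genes was not computed. Mrpl46 and Mrps11 are such neighbours of each other, with log2 fold changes of -0.15 (adjusted p = 0.193) and 0.05 (adjusted p = 0.754). Of 13 partners outside the members that could be tested, 2 passed (15.4%), a share near the 12.6% of all genes tested. Ncapd2, a condensin subunit that starts beside Mrpl51, fell as Mrpl51 did (-0.21, SE 0.06, adjusted p = 0.0484). Eme1, an endonuclease subunit that starts beside Mrpl27, fell (-0.41, SE 0.10, adjusted p = 0.0301), while Mrpl27 had a log2 fold change of 0.07 (adjusted p = 0.511). Helq, a helicase gene beside Mrps18c, had 0.05 (adjusted p = 0.746).

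The other genes of mitochondrial translation were counted from lists of known factors. Of 5 subunits with other names, such as Dap3, 0 passed the test in edgeR, and 0 had an unadjusted p under 0.05. The median log2 fold change was -0.02 for these subunits, 0.02 for 26 assembly factors, 0.095 for 16 translation factors and 0.14 for 5 genes of mitochondrial transcription, beside 0.01 for all genes tested. Among the 26 factors that assemble or modify the ribosome 1 fell (3.85%), against 12.6% of all genes tested that passed in either direction. Dhx30, a helicase of mitochondrial RNA granules, was at 17.97, 17.50 and 17.32 FPKM in siNQO1 and at 21.47, 20.52 and 21.04 FPKM in siCtrl (-0.24, SE 0.05, adjusted p = 0.0169). Among the 16 translation factors 1 rose (6.25%). Mtfmt, which formylates the initiator methionyl-tRNA, was at 13.3, 12.7 and 12.4 FPKM in siNQO1 and at 10.5, 9.14 and 9.98 FPKM in siCtrl (0.39, SE 0.09, adjusted p = 0.0246). The groups did not overlap for Dhx30 or Mtfmt, which kept an adjusted p under 0.05 in 3 and 2 of the 6 fits with a library left out. Among the genes of mitochondrial transcription 1 rose. Mterf, the older symbol of Mterf1 and a factor that binds downstream of the rRNA genes of the mitochondrial genome, was at 27.6, 32.7 and 27.6 FPKM in siNQO1 and at 14.8, 25.3 and 17.7 FPKM in siCtrl (0.62, SE 0.17, adjusted p = 0.0495), and it lost the call under RLE scaling (adjusted p = 0.0524). Mterf kept the call in 1 of 6 fits with a library left out, with log2 fold changes of 0.44 to 0.86 and a highest adjusted p of 0.225.

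Both mitochondrial rRNA rows, the RNA that members bind within the ribosome, rose in siNQO1, and the table does not say which rRNA each is. AY172581.9 had 10431, 9289 and 10481 reads in siNQO1 and 5116, 7863 and 7096 reads in siCtrl (log2 fold change 0.52, SE 0.09, adjusted p = 0.00935). AY172581.24 had 13615, 12752 and 12397 reads in siNQO1 and 4113, 9919 and 7193 reads in siCtrl (0.83, SE 0.21, adjusted p = 0.0371). The call was kept in 4 of 6 fits with a library left out for AY172581.9 and in 1 of 6 for AY172581.24, whose siCtrl libraries were widely spread. The selection of polyadenylated RNA means that these reads need not follow the amount of rRNA. Of the 13 mitochondrial messages 0 passed with every library, against 12.6% of all genes tested. An unadjusted p under 0.05 in edgeR was found for 3 (23.1%), against 29.0% of all genes tested. Without siCtrl replicate 2, 11 were higher (84.6%), against 17.2% of all genes in that fit. With every library the median log2 fold change of these messages was 0.35. RNA from the mitochondrial genome made up 6.21, 6.53 and 6.01% of reads in siNQO1 and 4.25, 6.40 and 5.19% in siCtrl. Among the siCtrl libraries only replicate 2 lay within the range of siNQO1. With transcripts of the mitochondrial genome left out, the same 11 members passed.

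Cytosolic ribosomal proteins, the counterparts outside the organelle, gave 20 higher and 4 lower of 88 tested (27.3%). The share was 12.6% for all genes tested and 15.3% for the members. The median log2 fold change was 0.10, beside 0.02 for the members. Many of the cytosolic genes have near-identical copies that may share reads. The difference between the 2 families was not tested.

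**Figure D5:**
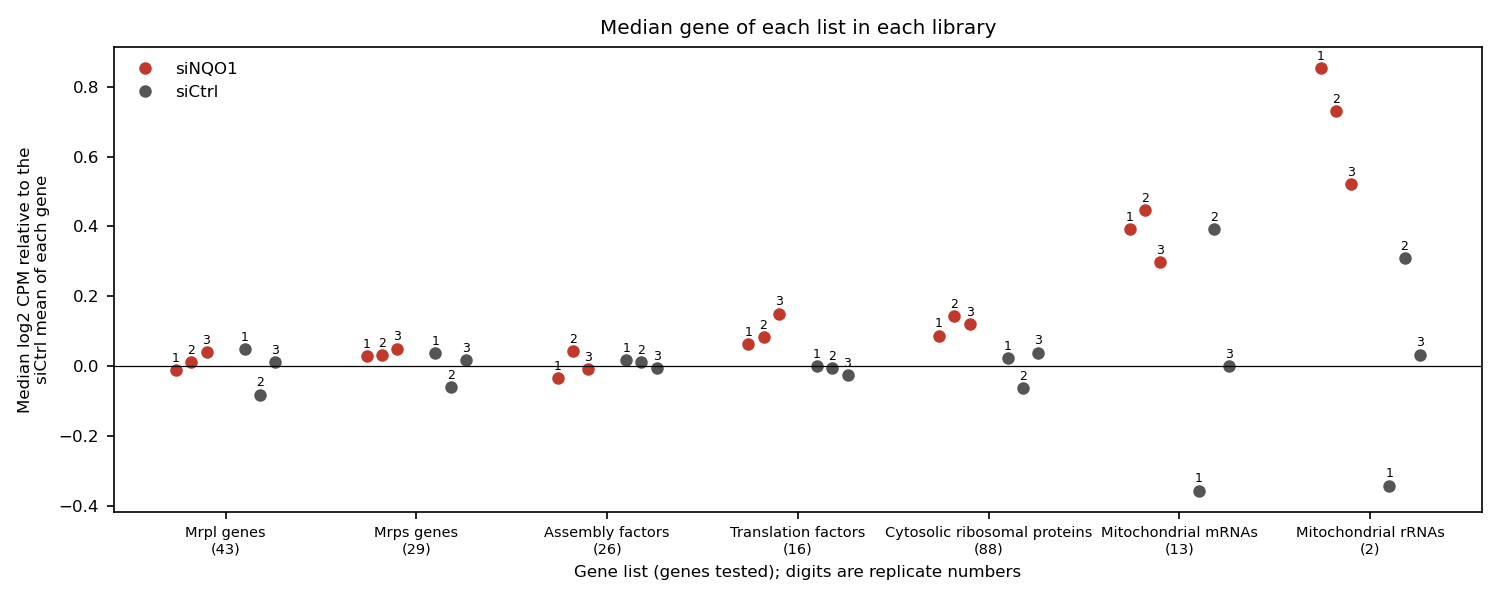
Median gene of each list in each library, as log2 CPM relative to the siCtrl mean of each gene (vertical axis), siNQO1 in red left of siCtrl in grey, with replicate numbers as digits and the number of genes tested in parentheses. The Mrpl and Mrps medians lay between -0.08 and 0.05 in every library, whereas the 2 mitochondrial rRNAs lay at 0.52 to 0.85 in siNQO1 and -0.34 to 0.31 in siCtrl.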

How the data were processed

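RNA-seq libraries were made from polyadenylated RNA of 3 siNQO1 and 3 siCtrl samples on a stranded protocol. The authors mapped cleaned reads to RGSC6 with TopHat2, allowing 4 mismatches, and retained those that mapped uniquely. Tools named in the submitters' processing notes are TopHat2, bcl2fastq and edgeR. The deposited counts are raw whole reads for each gene, and the FPKM values are those the authors computed. How reads were assigned to genes, and on which strand, is not given in the sources used here. Reads of overlapping genes and near-identical copies may therefore be shared.

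siNQO1 was compared with siCtrl on the counts in edgeR 4.0.16 under R 4.3.3 (filterByExpr, TMM, glmQLFit and glmQLFTest, no block), with Benjamini-Hochberg adjustment over 12420 genes tested and a threshold of 0.05. Its common biological coefficient of variation came to 0.109. The SE of a log2 fold change was derived from the test, as its absolute value divided by the square root of the quasi-likelihood F statistic. Members named are those past the threshold and the 4 with the highest and the 4 with the lowest mean FPKM, and of the other lists those past the threshold. Any other gene named was picked with its values in view. The members and lists were chosen with earlier results of these data known. Motif shares are per gene, over RefSeq windows of 300 bases. Replicates of a group differed beyond counting noise in every pair. Same-numbered libraries were not paired. Alternatives were other scalings and filters, other tests of edgeR, DESeq2 1.42.0, limma 3.58.1 (voom, and log2 FPKM with pseudocounts of 1 and 0.1), the replicate block and each library left out. Leaving out mitochondrial transcripts was added after the data had been seen. Splicing was not analysed here. Values of some single cell type markers are not reported here.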

Additional observations from a re-analysis of the deposited data

How the results depend on the processing

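All 11 called members kept their direction under every alternative run. With at least 1 CPM in every library, 7 members were lower, against 4. The same 11 members were called under the other scalings, filters and tests, which added at most Mrps15, Mrpl10 and Mrpl45, all lower. With the replicate number as a block, 6 members were higher and 3 lower, and Mrpl38 (adjusted p = 0.0518) and Mrpl39 (adjusted p = 0.0639) lost the call by edgeR. Over all genes the block gave 610 higher and 740 lower. The deviations of same-numbered libraries correlated at -0.04, 0.16 and 0.06, so the numbers were not taken as a pairing, and not every library correlated best with its own number.

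With 1 library left out, 1 to 8 members were higher and 1 to 14 lower, and over all genes 167 to 2164 were higher and 351 to 2036 lower. The median log2 fold change of the members ran from -0.01 to 0.04. Of the 11 calls, 4, 2 and 3 were kept without siNQO1 replicates 1, 2 and 3, and 7, 11 and 4 without siCtrl replicates 1, 2 and 3. These fits have fewer samples, and siCtrl replicate 2 was the library that raised the counts when left out. The cause was not tested. Mterf lost the call under RLE scaling, library size alone, the stricter filter and both FPKM fits, with adjusted p of 0.0512 to 0.061.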

Other observations

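Mt-nd6, a message translated by the mitochondrial ribosome and encoded on the light strand of the mitochondrial genome, had 3568, 3077 and 3711 reads in siNQO1 and 277, 4198 and 2996 reads in siCtrl. The low value belonged to siCtrl replicate 1, and the gene did not pass the test in edgeR (log2 fold change 0.47, SE 0.62, adjusted p = 0.666). It was chosen after its values were seen.

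Gfm2, a factor that recycles the mitochondrial ribosome, was at 3.87, 3.82 and 3.74 FPKM in siNQO1 and at 5.04, 4.77 and 4.39 FPKM in siCtrl, with no overlap and an adjusted p of 0.0516 in edgeR. Tfam, which packages and transcribes the mitochondrial genome, was at 25.9, 28.4 and 27.6 FPKM in siNQO1 and at 29.5, 33.1 and 30.6 FPKM in siCtrl, with no overlap and an adjusted p of 0.117. The groups did not overlap in 34.2% of all genes tested. Other genes of the same lists were higher with no overlap and did not pass in edgeR either. Among them were Slirp (log2 fold change 0.24, adjusted p = 0.0582), Mtrf1 (0.40, adjusted p = 0.0829) and Tefm (0.22, adjusted p = 0.231).

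A row annotated as an Mrps36 pseudogene held 464, 465 and 558 reads in siNQO1 and 357, 417 and 498 reads in siCtrl, and a row described as similar to Mrpl1 held 148, 167 and 185 reads in siNQO1 and 89, 139 and 141 reads in siCtrl (log2 fold change 0.37, adjusted p = 0.137). The row named Mrpl1 had 6, 2 and 2 reads in siNQO1 and 3, 4 and 7 reads in siCtrl. How reads were divided between such copies was not tested.

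Scg2, a secretory granule protein of neuroendocrine cells, was at 119, 110 and 108 FPKM in siNQO1 and at 165, 172 and 175 FPKM in siCtrl (log2 fold change -0.59, adjusted p = 0.000836 in edgeR). Its part in the results on mitochondrial ribosomal proteins was not tested.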
